A study of Medicago truncatula with 24 samples.

Results

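The miR171 family was followed in small RNA libraries of the legume Medicago truncatula, in shoots and roots of the cra2 mutant and of the wild type A17, under a local deficit or satiety of nitrogen. Members were the listed sequences that aligned, gaps not allowed, to a conserved miR171 or to the legume miR171h over 18 nt or more with no more than 3 mismatches, and those that could pair with such a sequence as the other hairpin arm with a 2-nt overhang. This gave 8 of the 427 listed sequences: 6 mature forms of conserved miR171, 1 mature miR171h and 1 opposite arm. Every sequence outside the family had at least 7 mismatches in the mature alignment, while the mature members had at most 2.

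Each root system was split. Plants had grown with 0.5 mM KNO3, roots were divided at 3 weeks of age, and the plants were harvested at 4 weeks after 4 days of treatment. In the deficit groups the local compartment received 0.05 mM KNO3, and in the satiety groups it received 10 mM NH4NO3. The systemic compartment had no mineral nitrogen in any group, in the satiety controls too. The 8 groups were cra2 shoots under deficit and satiety, A17 shoots under deficit and satiety, cra2 roots under deficit and satiety, and A17 roots under deficit and satiety, with 3 libraries each. The library labels name the organ and the local treatment alone, and the systemic origin of the roots is taken from the series design. The labels do not name the cra2 allele, and nothing in them says that replicates are separate plants, so the p-values measure the spread between these libraries, which may be technical. Small RNA libraries hold no marker transcripts, so neither the organ labels nor the loss of CRA2 could be checked. Libraries held 1494211 to 3919811 counts in shoots and 768323 to 1661422 counts in roots, and 3 counts correspond to 0.765 to 3.9 counts per 1000000 (CPM).

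Plant microRNAs are cut from hairpin precursors as a duplex, of which the mature strand guides an Argonaute protein to complementary transcripts, while the strand of the opposite arm is usually lost. Conserved miR171 directs the cleavage of transcripts of GRAS transcription factors of the HAIRY MERISTEM (SCARECROW-LIKE) group, which keep shoot and root meristems undifferentiated. The legume variant miR171h targets NSP2, a GRAS factor needed for nodulation and involved in arbuscular mycorrhiza and strigolactone synthesis. CRA2 is the receptor kinase that perceives CEP peptides made by nitrogen-starved roots. It acts systemically on nodule number, and it also affects root growth. The targets were not measured in these libraries.

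The mature strands are shown because the results differ between forms that vary by 1 or 2 bases. The capitals mark the seed, bases 2 to 8 from the 5' end, and T stands for U as in the deposited files.
miR171 form A: tGATTGAGtcgtgccaatatc
miR171 form B: tGATTGAGccgcgtcaatatc
miR171 form C: tGATTGAGccgtgccaatatt
miR171 form D: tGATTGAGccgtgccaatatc
miR171 form E: tTGAGCCGtgccaatatcacg
miR171 form F: aGATTGAGccgcgccaatatc
miR171h: cGAGCCGAatcaatatcactc
miR171 opposite arm: cGATGTTGgtgaggttcaatc

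All 8 sequences were 21 nt long. Forms A, B, C, D and F, 5 of the 6 mature forms, shared the seed GATTGAG. Counted from the 5' end of form D, form A carried C9T, form B carried T12C and C14T, form C carried C21T, and form F carried T1A and T12C, so that none of these 5 forms differed within the seed. Form E was identical to form D over 18 nt but began 3 nt later, which gave it the seed TGAGCCG. The miR171h sequence overlapped form E over 20 nt with 5 mismatches and had the seed GAGCCGA, which no other member shared. The opposite arm paired with form E with 2 mismatches and 4 GU pairs. The sources used here do not give how many mismatches the authors allowed when counting, so the split of reads among forms that differ by 1 base is uncertain.

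The members held 26657 of the 52312029 counts, or 0.051%. The opposite arm held 12901 counts, form A 5055, miR171h 4390, form B 1307, form C 1274, form D 1263, form E 453 and form F 14. In single libraries the members made up 0.0124% to 0.0495% of the counts in shoots and 0.0866% to 0.166% in roots.

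**Figure D1:**
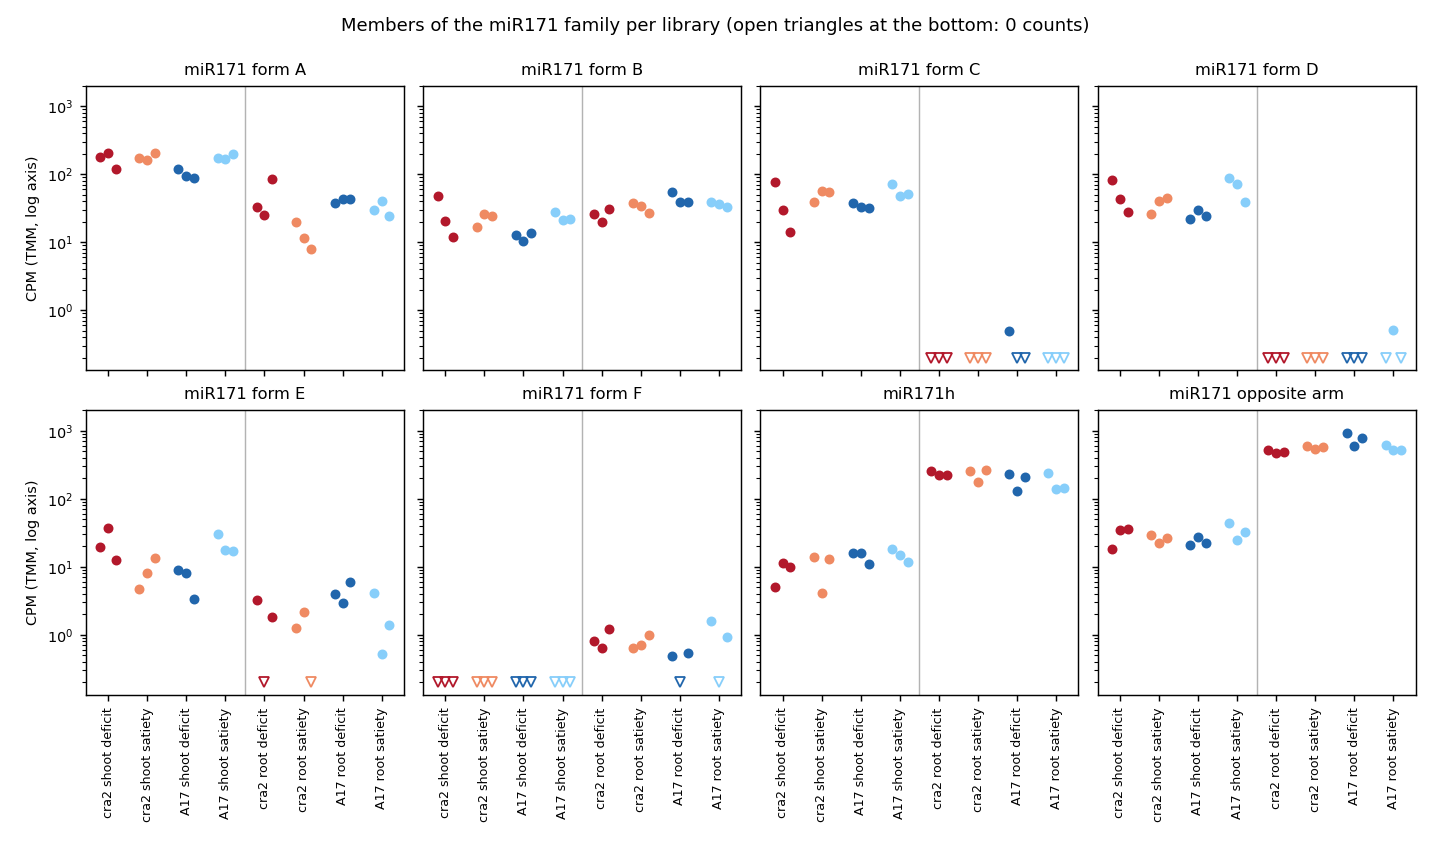
CPM of the 8 members in each library on a log axis, scaled over all 24 libraries with TMM, with 3 points per group (red and orange for cra2 under deficit and satiety, dark and light blue for A17 under deficit and satiety, shoots left of the grey line and roots right of it). Open triangles stand for libraries with 0 counts. Forms C and D appear in every shoot library and in 1 root library each, and miR171h and the opposite arm lie lower in every shoot library than in any root library.

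The organ set the largest differences in the family. Shoots carried form A at higher levels than roots in all 4 comparisons, forms C and D were almost absent from roots, and the opposite arm and miR171h were much lower in shoots. Forms C, D and E passed the filter on low counts through the shoots, where they are high, and not among the root libraries, so their organ differences are given as counts and levels with no test. Levels here are CPM scaled over all 24 libraries by TMM, which adjusts library totals for differences in composition. In bulk tissue, fewer cells that make a miRNA and less of it per cell cannot be told apart.

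Form A, the most abundant mature form in shoots, ranged over 86.6 to 208 CPM in the 12 shoot libraries (median 171 CPM) and over 7.99 to 84.2 CPM in the 12 root libraries (median 31.6 CPM). The ranges did not overlap on this scale. By library totals they did, with 210 of 3910246 counts in A17 shoot deficit replicate 2 below 138 of 1150733 in cra2 root deficit replicate 3. The log2 difference, shoot minus root, was 1.83 ± 0.35 (SE) in cra2 under deficit, 3.76 ± 0.40 in cra2 under satiety, 1.26 ± 0.35 in A17 under deficit and 2.52 ± 0.36 in A17 under satiety. Each passed the test, with an edgeR adjusted p between 2.8e-08 and 0.00344 (3 libraries against 3). Scaled by library totals alone, the A17 deficit difference was 0.36 with an edgeR adjusted p of 0.435, and was no longer called.

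Forms C and D, which differ by C21T, had 1273 and 1262 counts in the 12 shoot libraries. In the 12 root libraries each had 1 count. Form C ranged over 24 to 180 counts per shoot library, and form D over 47 to 204. Per library total, the shoot level of form C was 532 times the root level, with an exact 95% counting interval of 95.4 to 21043, and for form D it was 528 times, with an interval of 94.6 to 20862. On TMM-adjusted totals the ratios were 918 and 910. The intervals cover counting error alone, and reads without molecular identifiers are not independent molecules. Form C had its 1 root count in A17 under deficit and form D in A17 under satiety, and no cra2 root library held either. The cra2 root libraries had lower totals, and 1 count each cannot separate the genotypes.

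Form E, the form shifted by 3 nt, was present at 3.32 to 37.0 CPM in shoots (median 13.0 CPM) and at 0 to 6.01 CPM in roots (median 1.98 CPM), where 10 of 12 libraries had counts. It had 405 counts in shoots and 48 counts in roots. Per library total the shoot level was 3.53 times the root level, with an exact 95% counting interval of 2.61 to 4.86, and on TMM-adjusted totals it was 6.09 times, with an interval of 4.51 to 8.39. The groups did not overlap in cra2 under either supply or in A17 under satiety. Of all sequences tested, 51.0% did not overlap in cra2 under deficit, 54.0% in cra2 under satiety and 65.0% in A17 under satiety. In A17 under deficit the groups of form E overlapped, at 9.10, 8.13 and 3.32 CPM in shoots against 3.92, 2.91 and 6.01 CPM in roots.

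Form F, with T1A and T12C, showed the opposite distribution at a very low level. It had 0 counts in the 36886484 counts of the shoot libraries and 14 counts in the 15425545 counts of the root libraries, spread over 10 of 12. With a floor of 3 counts set for all shoot libraries together, form F was 11.2-fold lower in shoots by library totals and 6.47-fold lower on TMM-adjusted totals. These folds leave out the counting error of the 14 root counts, so they are not lower bounds. Form F did not pass the filter on low counts and was not tested.

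Form B, with 2 differences from form D downstream of the seed, was present in every library of both organs. It stood at 10.4 to 47.2 CPM in shoots (median 21.0 CPM) and at 20.0 to 54.4 CPM in roots (median 35.3 CPM), with overlapping ranges. It was lower in shoots in A17 under deficit, by a log2 difference of -1.84 ± 0.36 (edgeR adjusted p = 0.000136). The differences were 0.07 ± 0.36 in cra2 under deficit, -0.56 ± 0.36 in cra2 under satiety and -0.60 ± 0.35 in A17 under satiety (edgeR adjusted p = 0.892, 0.213 and 0.145). Under satiety the groups did not overlap in either genotype, beside 54.0% of all sequences in cra2 and 65.0% in A17. Library totals called form B lower in shoots under satiety in cra2 (-1.20, edgeR adjusted p = 0.0189) and A17 (-1.42, edgeR adjusted p = 0.00537). In A17 so did the compared libraries alone (-0.81, edgeR adjusted p = 0.014), and the other settings did not.

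miR171h ranged over 4.10 to 18.2 CPM in shoots (median 12.5 CPM) and over 132 to 261 CPM in roots (median 223 CPM). Every shoot library lay below every root library. The log2 difference, shoot minus root, was -4.72 ± 0.41 in cra2 under deficit, -4.46 ± 0.40 in cra2 under satiety, -3.73 ± 0.38 in A17 under deficit and -3.53 ± 0.38 in A17 under satiety, with edgeR adjusted p between 1.41e-09 and 7.13e-08. Whether the organ difference itself differed between the genotypes was not tested.

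The opposite arm ranged over 18.5 to 43.3 CPM in shoots (median 27.0 CPM) and over 467 to 939 CPM in roots (median 567 CPM), again without overlap. Its log2 difference was -4.04 ± 0.28 in cra2 under deficit, -4.46 ± 0.28 in cra2 under satiety, -5.04 ± 0.29 in A17 under deficit and -4.04 ± 0.27 in A17 under satiety, with edgeR adjusted p between 8.82e-13 and 4.37e-11. Of the 4 members that pass the filter within each organ on its own (forms A and B, the opposite arm and miR171h), 3 were called in cra2 under deficit, in cra2 under satiety and in A17 under satiety, with 1 higher and 2 lower in shoots. In A17 under deficit 4 were called, with 1 higher and 3 lower. The background was high, and it covers all single sequences tested, including those that passed the filter through 1 organ alone. The share called between organs was 48.5% in cra2 under deficit, 46.0% in cra2 under satiety, 56.0% in A17 under deficit and 49.5% in A17 under satiety. With the 6 mature forms summed into 1 entry the shares were 47.4%, 45.4%, 55.6% and 49.0% in the same order. The median log2 difference over all tested sequences was 0.07, -0.13, -0.12 and 0.23 in that order.

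Summed over its 6 mature forms, conserved miR171 was higher in shoots than in roots in each setting. The sum averaged 311 ± 113 CPM in cra2 shoots under deficit and 75.6 ± 37.6 CPM in cra2 roots under deficit (SD, n = 3 each). It averaged 178 ± 19.9 CPM in A17 shoots under deficit and 90.7 ± 6.07 CPM in A17 roots under deficit (SD, n = 3 each). The log2 differences were 2.04 ± 0.31 in cra2 under deficit, 2.64 ± 0.32 in cra2 under satiety, 0.97 ± 0.30 in A17 under deficit and 2.30 ± 0.31 in A17 under satiety, with edgeR adjusted p of 5.24e-06, 1.72e-07, 0.00723 and 1.01e-06. The A17 deficit difference depended on the scaling, at 0.08 with an edgeR adjusted p of 0.862 by library totals. Without A17 shoot deficit replicate 1 it was 0.75 with an edgeR adjusted p of 0.0595. Library totals move the median of all tested sequences down, to between -0.98 and -0.52, so that members higher in shoots read lower and those lower in shoots read lower still.

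**Figure D2:**
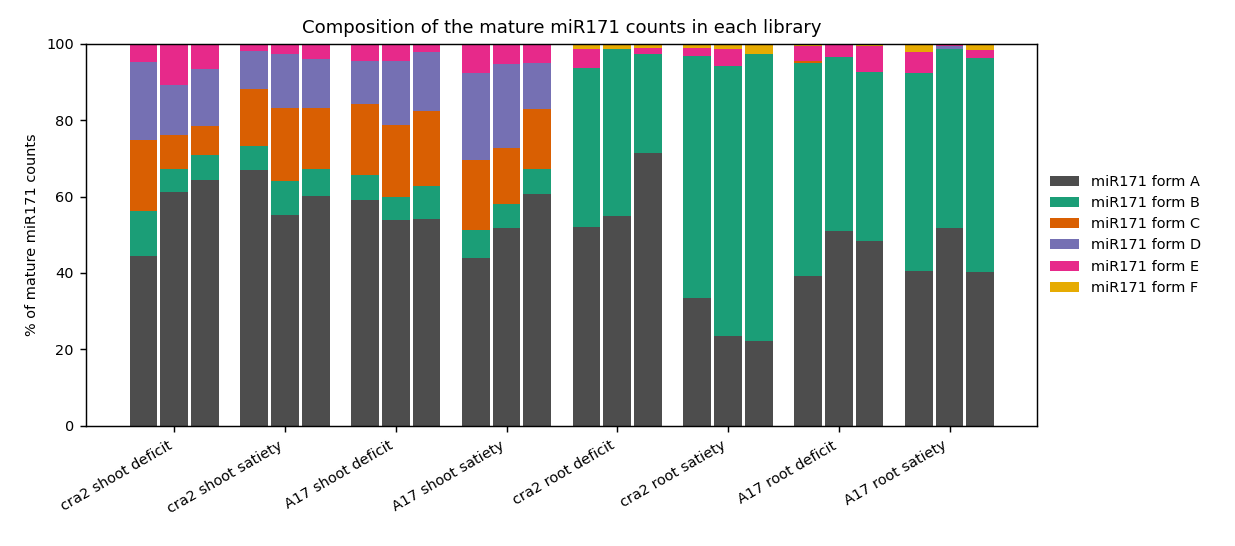
Share of each mature form in the summed mature miR171 counts of each library, in percent, with 3 stacked bars per group. Shoot libraries hold forms A, B, C, D and E, while root libraries consist almost wholly of forms A and B.

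The composition of the mature strands therefore differed between organs. Over the 12 shoot libraries together, form A made up 55.3% of the mature miR171 counts, form C 16.1%, form D 16.0%, form B 7.51% and form E 5.13%. Over the 12 root libraries form B made up 48.6%, form A 47.1%, form E 3.27% and form F 0.952%. Within roots the cra2 satiety libraries stood apart. There form B made up 63.4% to 75.0% and form A 22.2% to 33.3%, whereas form A made up 51.9% to 71.5% in cra2 under deficit, 39.2% to 51.0% in A17 under deficit and 40.3% to 51.7% in A17 under satiety.

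The balance of the opposite arm to the 6 summed mature forms turned over between organs. Opposite arm counts divided by summed mature counts gave 0.0455 to 0.194 in the 12 shoot libraries (median 0.103) and 4.15 to 16.3 in the 12 root libraries (median 8.74). Shoot libraries thus held more of the summed mature forms than of the opposite arm, and root libraries the reverse. This ratio is taken within a library and needs no scaling between libraries. The mean log2 ratio was -3.36 ± 1.04 in cra2 shoots under deficit and 2.80 ± 0.67 in cra2 roots under deficit, and -2.92 ± 0.30 in A17 shoots under deficit and 3.06 ± 0.24 in A17 roots under deficit (SD, n = 3 each). The differences, shoot minus root, were -6.16 in cra2 under deficit, -7.12 in cra2 under satiety, -5.99 in A17 under deficit and -6.37 in A17 under satiety. Each had a two-sided exact permutation p of 0.1, the smallest that 3 libraries against 3 allow, which is 0.24 after adjustment over the 12 comparisons of this ratio, so the design cannot reach 0.05. Against form E, with which it pairs, the opposite arm had 771 counts to 405 in shoots, or 1.90 per count of form E, and 12130 to 48 in roots, or 253 per count. Set against form E alone, the opposite arm was thus in excess in both organs, and the turnover holds for the sum only. Whether the opposite arm comes from the hairpin of form E alone was not tested.

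**Figure D3:**
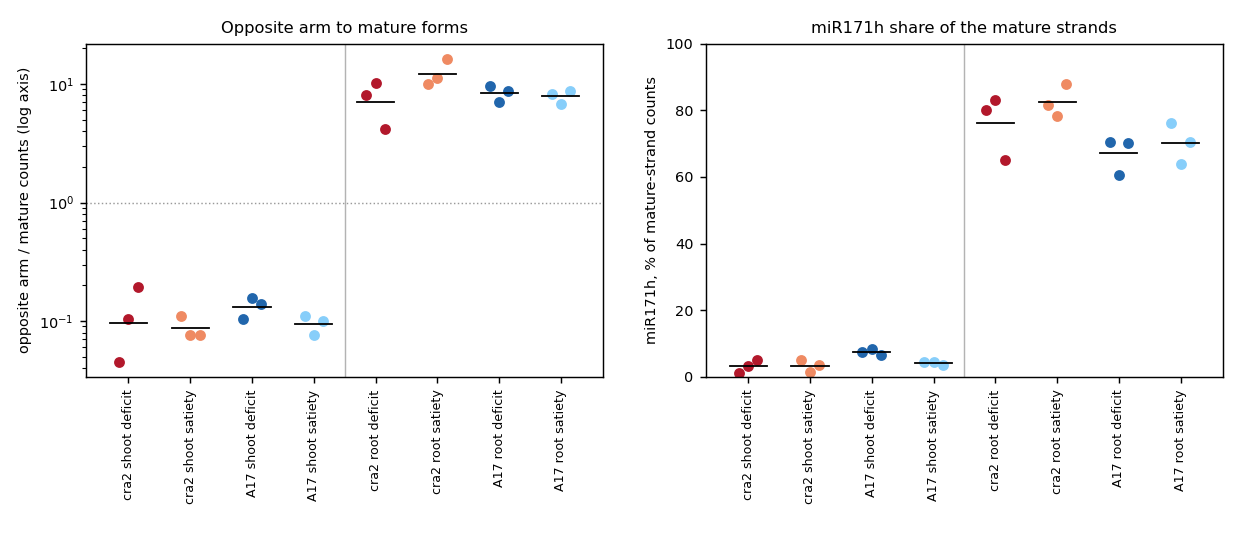
Left, opposite arm counts divided by summed mature miR171 counts in each library on a log axis, with a dotted line at equal counts. Right, miR171h in percent of the counts of miR171h plus mature miR171, with the same 8 groups and colours as in the plot of member levels and a bar at the group mean (geometric on the left). Shoot libraries lie between 0.0455 and 0.194 on the left and at most at 8.26% on the right, below every root library in both.

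The share of miR171h, with its NSP2-type seed, among the mature strands followed the same split. It made up 1.23% to 8.26% of miR171h plus mature miR171 in shoots (median 4.39%) and 60.6% to 87.9% in roots (median 73.4%). In roots it averaged 76.1 ± 9.58% in cra2 under deficit, 82.5 ± 4.92% in cra2 under satiety, 67.0 ± 5.6% in A17 under deficit and 70.2 ± 6.17% in A17 under satiety (SD, n = 3 each). In shoots it averaged 3.21 ± 1.95% in cra2 under deficit, 3.36 ± 1.86% in cra2 under satiety, 7.40 ± 0.90% in A17 under deficit and 4.09 ± 0.52% in A17 under satiety (SD, n = 3 each). Libraries did not overlap between deficit and satiety in A17 shoots, between cra2 and A17 shoots under deficit, or between cra2 and A17 roots under satiety. For these 3 contrasts the log2 ratio of miR171h to mature miR171 differed by 0.91, -1.47 and 1.02, each at the smallest possible two-sided exact permutation p of 0.1 and at 0.171 after adjustment over 12 comparisons.

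The nitrogen comparisons asked whether the supply of the local compartment changed the family in the other organs of the plant. CPM in these comparisons are scaled within the 12 libraries of an organ. Form A in cra2 roots was the member that passed the test, and it was higher under deficit. Its libraries held 40, 39 and 138 counts under deficit and 31, 16 and 8 counts under satiety, or 41.9, 31.8 and 114 CPM under deficit against 25.1, 16.4 and 10.7 CPM under satiety. The groups did not overlap, as in 41.1% of all sequences tested. Replicate 3 was the highest deficit library and also the lowest satiety library. The log2 difference was 1.80 ± 0.43 (edgeR adjusted p = 0.00433). It passed under the 6 other settings run and with each of the 6 libraries left out. Without cra2 root deficit replicate 3 the difference was 1.12 with an edgeR adjusted p of 0.0478.

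Form B, the other main root form, was not called. In cra2 roots it had 33.5, 25.3 and 41.4 CPM under deficit against 47.7, 49.2 and 36.3 CPM under satiety, a log2 difference of -0.42 ± 0.30 (edgeR adjusted p = 0.317). The opposite arm had 656, 590 and 663 CPM under deficit against 751, 788 and 788 CPM under satiety. These groups did not overlap either, beside the same 41.1% of all sequences, and the log2 difference was -0.29 ± 0.19 (edgeR adjusted p = 0.308). miR171h averaged 302 ± 18.7 CPM under deficit and 311 ± 53.3 CPM under satiety (SD, n = 3 each), a log2 difference of -0.04 with a 95% interval of -0.53 to 0.45. Here and below, 95% intervals of log2 differences are normal approximations from the SE and are somewhat too narrow. Of the 4 members tested in cra2 roots 1 was called, against 28.6% of all single sequences and 25.7% with the mature forms summed. Summed mature miR171 differed by 0.62 ± 0.32 (edgeR adjusted p = 0.167). With the assignment limited to at most 1 mismatch, which drops form B, the sum differed by 1.68 (edgeR adjusted p = 0.00548).

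In A17 roots 0 of the 4 tested members were called by edgeR, while 31.0% of all single sequences were, and 31.1% with the mature forms summed. At an unadjusted p under 0.05 there was 1 member, the opposite arm, beside 68 of all 168 sequences tested. DESeq2 called 0 members, beside 51 of 168 sequences. All 4 differences were positive. Form A had 48.8, 58.8 and 51.0 CPM under deficit against 39.8, 50.7 and 31.1 CPM under satiety, a log2 difference of 0.38 ± 0.38 (edgeR adjusted p = 0.453). The opposite arm had 1199, 807 and 920 CPM under deficit against 808, 662 and 673 CPM under satiety. Its log2 difference was 0.45 ± 0.19 with an edgeR adjusted p of 0.0815, and 0.59 with an edgeR adjusted p of 0.0369 without A17 root deficit replicate 2. miR171h averaged 240 ± 60.5 CPM under deficit and 225 ± 79.0 CPM under satiety (SD, n = 3 each), a log2 difference of 0.10 with a 95% interval of -0.39 to 0.59.

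The response of form A to deficit in roots was larger in cra2 than in A17 by 1.42 ± 0.58 on the log2 scale, and that of the opposite arm was lower by -0.73 ± 0.27. Neither difference of responses passed (edgeR adjusted p = 0.377 for each). In this comparison edgeR called 0 of 4 members and 0.0% of all sequences, in both tables. At an unadjusted p under 0.05 there were 2 members, beside 21 of all 168 sequences tested, and DESeq2 called 0 members and 0 of 168 sequences.

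**Figure D4:**
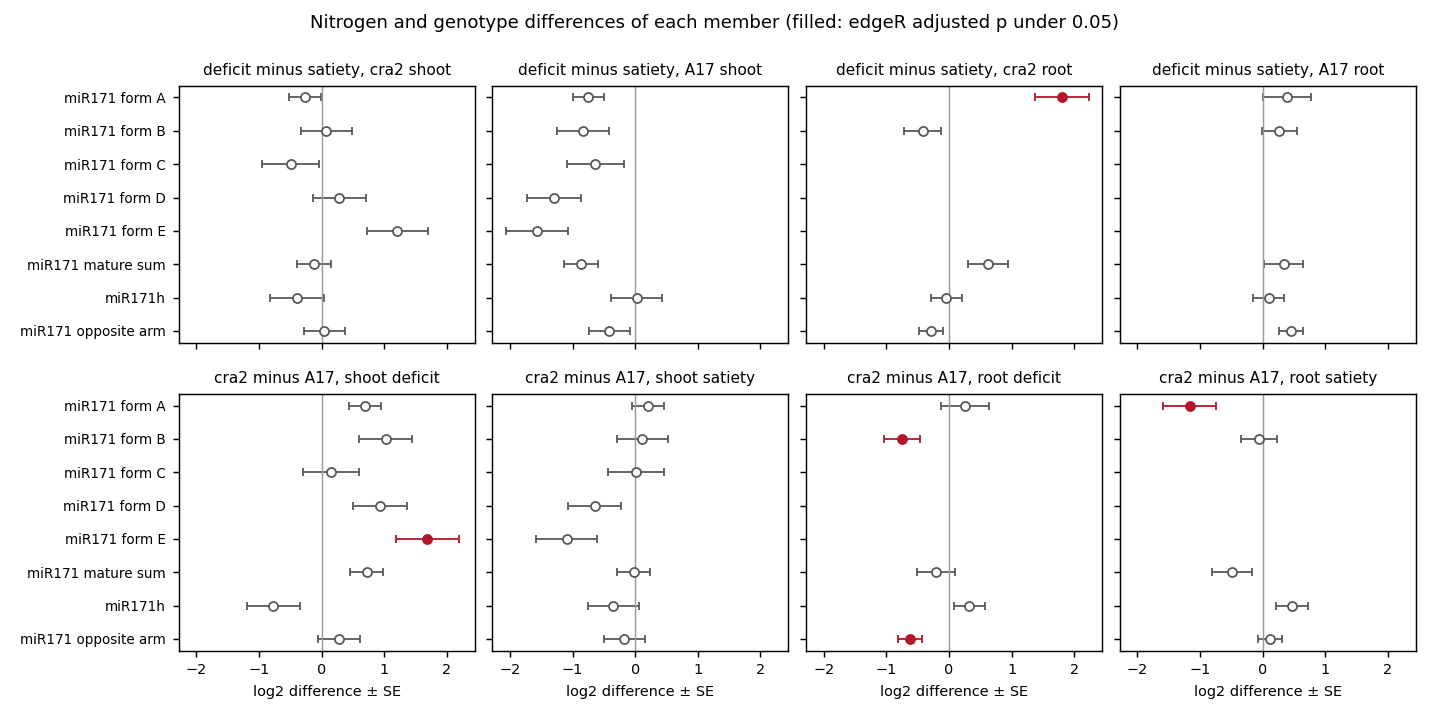
Log2 difference of each tested member, with its SE as a horizontal bar, for deficit minus satiety (top row) and cra2 minus A17 (bottom row) within each organ and genotype or nitrogen supply. Filled red points had an edgeR adjusted p under 0.05. In A17 shoots the 5 mature forms and their sum lie left of 0 and miR171h lies at 0.02, and form A in cra2 roots has the largest called difference, 1.80.

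In A17 shoots the mature forms were at lower levels under deficit, but short of the threshold. The median log2 difference of all tested sequences was itself -0.188 under TMM, and -0.028 under RLE scaling. With RLE the summed mature forms differed by -0.705 (edgeR adjusted p = 0.0867). The part of this general shift in the member differences was not tested. Form A had 90.6, 71.4 and 71.4 CPM under deficit against 124, 134 and 135 CPM under satiety. Form D had 17.2, 22.1 and 20.4 CPM under deficit against 63.5, 56.8 and 26.8 CPM under satiety. Form E had 7.0, 6.12 and 2.74 CPM under deficit against 21.8, 13.9 and 11.5 CPM under satiety. For forms A, B, C, D and E every deficit library lay below every satiety library. The log2 differences were -0.75 ± 0.25 for form A, -0.84 ± 0.42 for form B, -0.64 ± 0.45 for form C, -1.30 ± 0.43 for form D and -1.57 ± 0.50 for form E, with edgeR adjusted p of 0.0726, 0.174, 0.323, 0.066 and 0.0576.

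The summed mature forms of A17 shoots had 153, 132 and 132 CPM under deficit against 281, 258 and 223 CPM under satiety, a log2 difference of -0.87 ± 0.27 (edgeR adjusted p = 0.0547). miR171h had 12.4, 11.9 and 9.12 CPM under deficit against 13.1, 11.7 and 8.06 CPM under satiety, a log2 difference of 0.02 with a 95% interval of -0.77 to 0.82. Of the 7 members tested, edgeR called 0, beside 0.0% of all single sequences and 2.7% with the mature forms summed. At an unadjusted p under 0.05 there were 3 members, beside 62 of all 189 sequences tested. DESeq2 called 1 member, form E (DESeq2 adjusted p = 0.0499), beside 30 of 189. In 5 of the 7 members the groups did not overlap, beside 47.6% of all sequences tested. The calls differed with the libraries in the fit, which also changed the sequences tested and the scaling. Fitted with the 6 A17 shoot libraries alone, 5 members were called beside 70 of 175 sequences (26 higher, 44 lower). The sum then differed by -0.92 (edgeR adjusted p = 0.00274), and the median of all tested sequences was -0.235. Without the cra2 shoot deficit libraries in the fit, 4 members were called beside 65 of 181 sequences (34 higher, 31 lower). There the sum differed by -0.77 (edgeR adjusted p = 0.00692), and the median was -0.087.

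In cra2 shoots the members spread widely. Form D had 59.3, 33.1 and 21.0 CPM under deficit against 20.9, 35.5 and 37.4 CPM under satiety, and form C had 53.9, 22.9 and 10.7 CPM under deficit against 30.7, 48.5 and 45.5 CPM under satiety. Forms B, C and D were highest in deficit replicate 1 and lowest in deficit replicate 3, while form E was highest in replicate 2. Form E had the lowest p, with 13.8, 28.0 and 9.38 CPM under deficit against 3.80, 7.09 and 11.2 CPM under satiety and a log2 difference of 1.21 ± 0.49 (edgeR adjusted p = 0.572). Summed mature miR171 differed by -0.12 with a 95% interval of -0.65 to 0.40, and miR171h by -0.40 with an interval of -1.25 to 0.46. edgeR called 0 of 7 members, at 0.0% of all sequences in both tables. With an unadjusted p under 0.05 there was 1 member, beside 12 of all 189 sequences tested, and DESeq2 called 0 members and 0 of 189 sequences. The response of form E in shoots was higher in cra2 than in A17 by 2.78 ± 0.69 on the log2 scale, and that of form D by 1.58 ± 0.60 (edgeR adjusted p = 0.0698 and 0.113). For this difference of responses edgeR called 0 of 7 members and 0.0% of all sequences in both tables, 2 members had an unadjusted p under 0.05 beside 51 of 189 sequences, and DESeq2 called 1, form E (DESeq2 adjusted p = 0.00931), beside 24 of 189.

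The genotype comparisons set cra2 against A17 at equal nitrogen supply. Every cra2 root library was shallower than every A17 root library, at 768323 to 1163545 counts against 1358742 to 1661422 counts. The part of depth in the root differences was not tested. In roots under deficit the opposite arm and form B were lower in cra2. The opposite arm had 656, 590 and 663 CPM in cra2 against 1199, 807 and 920 CPM in A17, a log2 difference of -0.62 ± 0.19 (edgeR adjusted p = 0.0178). The groups did not overlap, beside 45.8% of all sequences tested. Form B had 33.5, 25.3 and 41.4 CPM in cra2 against 69.4, 52.5 and 46.5 CPM in A17, a log2 difference of -0.75 ± 0.29 (edgeR adjusted p = 0.0492). The background was 32.7% of all single sequences called, and 32.3% with the mature forms summed, beside 2 of 4 members. The call of form B was lost under all 6 other settings and with any 1 library left out. That of the opposite arm was lost by library totals (-0.48, edgeR adjusted p = 0.11), and without A17 root deficit replicate 1 (-0.41, edgeR adjusted p = 0.138), cra2 root deficit replicate 1 (edgeR adjusted p = 0.0729) or cra2 root deficit replicate 2 (edgeR adjusted p = 0.0914).

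In roots under satiety form A was lower in cra2, at 25.1, 16.4 and 10.7 CPM in cra2 against 39.8, 50.7 and 31.1 CPM in A17. The groups did not overlap, beside 39.9% of all sequences tested, and the log2 difference was -1.17 ± 0.43 (edgeR adjusted p = 0.0497). This made 1 of 4 members, against 26.2% of all single sequences and 25.7% with the mature forms summed. The call was lost with RLE scaling (edgeR adjusted p = 0.0526), library totals (edgeR adjusted p = 0.0593) and a replicate block (edgeR adjusted p = 0.0634), and without A17 root satiety replicate 2, cra2 root satiety replicate 2 or cra2 root satiety replicate 3 (edgeR adjusted p = 0.175, 0.182 and 0.217). miR171h averaged 302 ± 18.7 CPM in cra2 roots and 240 ± 60.5 CPM in A17 roots under deficit, and 311 ± 53.3 CPM in cra2 roots and 225 ± 79.0 CPM in A17 roots under satiety (SD, n = 3 each). Its log2 differences of 0.33 ± 0.25 and 0.47 ± 0.25 did not pass (edgeR adjusted p = 0.356 and 0.196), with 95% intervals of -0.16 to 0.82 and -0.02 to 0.96.

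In shoots under deficit form E was higher in cra2, at 13.8, 28.0 and 9.38 CPM in cra2 against 7.0, 6.12 and 2.74 CPM in A17, with a log2 difference of 1.69 ± 0.50 (edgeR adjusted p = 0.0439). Of 7 members 1 was called, beside 13.2% of all single sequences and 11.4% with the mature forms summed. Among the 7 differences 6 were positive, beside a median log2 difference of 0.09 over all tested sequences. The count was 4 by library totals (forms A, B, D and E), beside 53 of 189 sequences, 47 of them higher. Library totals put the median of all tested sequences at 0.57. By DESeq2 the count was 2 (with form A, DESeq2 adjusted p = 0.0421), beside 37 of 189. It was 4 without cra2 shoot deficit replicate 3, for which the count over all sequences is not given here. The call of form E was lost with a replicate block (edgeR adjusted p = 0.0717), with the 6 compared libraries alone (edgeR adjusted p = 0.0814), without any of the 3 A17 libraries (edgeR adjusted p = 0.0661, 0.126 and 0.144) and without cra2 shoot deficit replicate 2 (edgeR adjusted p = 0.212). The summed mature forms differed by 0.72 ± 0.27 (edgeR adjusted p = 0.0836), and by 0.94 without cra2 shoot deficit replicate 3 (edgeR adjusted p = 0.0133). miR171h had 3.59, 8.67 and 7.60 CPM in cra2 against 12.4, 11.9 and 9.12 CPM in A17. Its groups did not overlap, beside 29.6% of all sequences tested, yet the log2 difference of -0.77 ± 0.43 did not pass (edgeR adjusted p = 0.229).

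In shoots under satiety edgeR called 0 of 7 members in cra2 against A17, at a background of 6.88% of all single sequences and 7.57% with the mature forms summed. At an unadjusted p under 0.05 there was 1 member, beside 39 of all 189 sequences tested, and DESeq2 called 0 members, beside 16 of 189 sequences. Form E had 3.80, 7.09 and 11.2 CPM in cra2 against 21.8, 13.9 and 11.5 CPM in A17, a log2 difference of -1.09 ± 0.49 (edgeR adjusted p = 0.238). Summed mature miR171 differed by -0.03 with a 95% interval of -0.55 to 0.50.

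The response to deficit was also compared between organs within each genotype, in the fit of all 24 libraries. In A17 the shoot response lay below the root response for form E by -2.74 ± 0.91, for the summed mature forms by -1.33 ± 0.42 and for the opposite arm by -1.00 ± 0.35 on the log2 scale (edgeR adjusted p = 0.0295, 0.0219 and 0.0354). For miR171h the difference was -0.21 ± 0.50 (edgeR adjusted p = 0.817). Form E passed the filter through the shoots and had 24 and 12 counts in A17 roots under deficit and satiety, so its test is given as a description alone. Of the 4 members that pass it within each organ 1 was called, the opposite arm, against 27.0% of all single sequences and 27.6% with the mature forms summed. These shares also cover sequences that passed the filter through 1 organ alone. Under TMM the median of all tested sequences was itself -0.31 in this comparison, and -0.01 under RLE scaling. The call of the opposite arm was lost by RLE (-0.67, edgeR adjusted p = 0.147), library totals (edgeR adjusted p = 0.0802), DESeq2 (DESeq2 adjusted p = 0.124), no filter (edgeR adjusted p = 0.481) and the compared libraries alone (-0.54, edgeR adjusted p = 0.249). That of the summed forms was lost by RLE, library totals and no filter (edgeR adjusted p = 0.0535, 0.0526 and 0.22), and that of form E without a filter (edgeR adjusted p = 0.0679). Without A17 root deficit replicate 1, 2 or 3, A17 root satiety replicate 3 or A17 shoot deficit replicate 3, each of the 3 calls was lost. Form E also lost its call without A17 root satiety replicate 2 or A17 shoot satiety replicate 1, the opposite arm without A17 root satiety replicate 1 or A17 shoot satiety replicate 1, and the summed forms without A17 root satiety replicate 1. Over these losses the edgeR adjusted p was 0.0544 to 0.114 for form E, 0.0775 to 0.23 for the opposite arm and 0.0513 to 0.146 for the summed forms.

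In cra2 the response of form A was lower in shoots than in roots by -1.93 ± 0.51 (edgeR adjusted p = 0.0637). There edgeR called 0 of 7 members, 4 of which pass the filter within each organ, against 0.5% of all single sequences and 0.51% with the mature forms summed, and 1 member had an unadjusted p under 0.05 beside 21 of 200 sequences. DESeq2 called 1, form A (DESeq2 adjusted p = 0.00183), beside 4 of 200, and form A was also called by edgeR with RLE scaling (edgeR adjusted p = 0.0205) and without a filter (edgeR adjusted p = 0.0346).

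As a frame for these counts, 27 sequences that hold a short core of 1 of 10 other families with known roles in nodulation, mycorrhiza or root development were listed, without the 8 others that lie within 3 mismatches of one: miR2111, miR172, miR169, miR166, miR160, miR164, miR167, miR390, miR396 and miR399. Over all single sequences, 28.6% were called for deficit against satiety in cra2 roots and 31.0% in A17 roots. Of the 22 listed sequences tested there, 2 were higher and 3 lower in cra2 roots, and 7 were higher and 6 lower in A17 roots. Among those higher in A17 roots under deficit was miR2111, the shoot-made signal that lowers a brake on nodulation, at 1.04 ± 0.31 (edgeR adjusted p = 0.0178). For cra2 against A17 in roots, 2 of 22 were higher and 9 lower under deficit, and 2 were higher and 6 lower under satiety. The shares of all single sequences called in these comparisons were 32.7% and 26.2%. Here miR2111 was lower in cra2 by -3.02 ± 0.36 under deficit and -1.77 ± 0.36 under satiety (edgeR adjusted p = 2.04e-06 and 0.000608). Within shoots, 0 of 21 were called for deficit in either genotype, beside 0.0% of all sequences. For cra2 against A17 in shoots, 1 was higher and 1 lower under deficit, and 0 higher and 3 lower under satiety, beside 13.2% and 6.88%. Between shoots and roots, 5 of 23 were higher and 5 lower in shoots in cra2 under deficit, 6 and 9 in cra2 under satiety, 2 and 11 in A17 under deficit, and 3 and 9 in A17 under satiety. Over all single sequences the shares called were 48.5%, 46.0%, 56.0% and 49.5% in that order.

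The sequences whose profile was most like that of the family within an organ were found by Pearson's r of log2 CPM over the 12 libraries of the organ, among 182 other sequences in shoots and 164 in roots. The values share library and depth and describe these libraries alone. The deposited files give these sequences no names. The closest in each case is shown, of which that for miR171h in shoots had 1 mismatch over 20 nt to a sequence listed as miR172, with bases 2 to 8 in capitals.
Closest to summed mature miR171 in shoots: aGCTGGAGtcacatgcttgaattt
Closest to miR171h in shoots: aGAATCCTgatgatgctgcag
Closest to summed mature miR171 in roots: tTGGACTGaagggagctccca
Closest to miR171h in roots: tTGCAGACagctttgaaggtt

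Their r was 0.89 and 0.84 in shoots for the summed mature forms and miR171h, and 0.861 and 0.705 in roots. For the sequences ranked 2 and 3, r was 0.871 and 0.859 for the summed forms and 0.838 and 0.821 for miR171h in shoots. In roots it was 0.808 and 0.792 for the summed forms and 0.681 and 0.641 for miR171h. Sequences within 3 mismatches of the listed miR169 had rank 3 for miR171h in shoots and ranks 2 and 3 for the summed forms in roots. The 12 sequences were all different, so no sequence was among the closest in both organs.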

How the data were processed

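Small RNA was measured in 24 libraries, 3 in each of 8 groups taken from the labels. Per the labels' protocols, RNA came from a miRNeasy kit and libraries from the NEXTFLEX Small RNA-seq kit v3. Per the submitters' processing notes, cutadapt was used. The sources used here do not give its version, the aligner, the counter or the genome build. The authors deposited whole-number counts per sequence, without normalization, for the same 427 sequences in every library. These counts were used unchanged, and 84 sequences had none.

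The files hold no miRNA names, so families were assigned by ungapped alignment, allowing 3 mismatches and needing 18 nt or more, to listed sequences that hold a short family core. The 10 other families were taken by their short core alone. Opposite arms needed a 2-nt overhang, at least 17 paired bases and at most 4 GU pairs. The members and lists were chosen with earlier results of these data known. Sequence forms are lettered by their total counts, and letters carry no locus.

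The main test was edgeR 4.0.16 (R 4.3.3) quasi-likelihood on TMM-scaled counts that passed filterByExpr at a minimum count of 10. Adjustment was by Benjamini-Hochberg over all sequences tested, with calls under 0.05. Each organ was fitted with its 12 libraries, and comparisons across organs with all 24. The summed mature forms were tested in the same way in a table where they replace the 6 forms. Ratios of counts used 0.5 added to each sum and a two-sided exact permutation test (scipy 1.17.1). The fits were tested on simulated data. All members are described. The sequences most like the family were the 3 with the highest r per organ (prior count 2).

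Alternatives were RLE scaling, library totals, DESeq2 1.42.0, no filter, the compared libraries alone, a replicate block, each library left out, leaving out the cra2 shoot deficit group, 1 added in ratios, and at most 1 mismatch. Replicate numbers were checked by correlating residuals of equally numbered libraries. Every pair was above 0.1 only for deficit and satiety in A17 roots (0.214, 0.131 and 0.334). Unequally numbered libraries were not compared, so this cannot decide whether the numbers pair libraries there. The block changed no call of a member in that comparison.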

Additional observations from a re-analysis of the deposited data

Results flagged for a closer look

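In A17 the response to local nitrogen deficit differed between shoots and roots for form E, by -2.74 on the log2 scale (shoot minus root, edgeR adjusted p = 0.0295). Form E averaged 6.85 ± 3.10 CPM in shoots under deficit and 21.6 ± 7.54 CPM in shoots under satiety, and 4.28 ± 1.58 CPM in roots under deficit and 2.03 ± 1.91 CPM in roots under satiety (SD, n = 3 each, scaled over all libraries). The root values rest on 24 and 12 counts, form E passed the filter on low counts through the shoots, and its call ended without a filter (edgeR adjusted p = 0.0679). The test of form E is therefore a description alone.

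The summed mature forms differed in the same comparison by -1.33 (edgeR adjusted p = 0.0219), with 178 ± 19.9 CPM in shoots under deficit and 349 ± 36.5 CPM in shoots under satiety, and 90.7 ± 6.07 CPM in roots under deficit and 70.7 ± 9.52 CPM in roots under satiety. This call ended under 3 of 7 other settings.

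The opposite arm differed by -1.00 (edgeR adjusted p = 0.0354), with 23.4 ± 3.62 CPM in shoots under deficit and 33.7 ± 9.15 CPM in shoots under satiety, and 772 ± 169 CPM in roots under deficit and 554 ± 52.7 CPM in roots under satiety. Of 6 other settings 5 ended this call, with a difference of -0.67 by RLE and -0.54 with the compared libraries alone. The median of all tested sequences in this comparison was -0.31 under TMM and -0.01 under RLE scaling, and its part in these results was not tested.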

How the results depend on the processing

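Across 60 results for the summed mature forms, miR171h, the opposite arm and the ratio, 284 of 316 values under other settings kept their direction and side of the threshold, as did 385 of 432 values with 1 library left out. The cause of each change was not tested. By library totals, the summed forms differed by 0.078 between shoots and roots in A17 under deficit, 1.30 between cra2 and A17 shoots under deficit, 0.38 for deficit in cra2 shoots and -1.41 for shoot minus root response in A17, where they were -1.01 by RLE and -0.89 without a filter. With at most 1 mismatch they differed by 1.68 for deficit in cra2 roots and 0.17 between cra2 and A17 roots under deficit. With the compared libraries alone they differed by -0.92 for deficit in A17 shoots and 0.009 in cra2 shoots, and without the cra2 shoot deficit group by -0.77 in A17 shoots. Between cra2 and A17 shoots under satiety they differed by 0.001 by RLE and DESeq2.

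The opposite arm by library totals differed by 0.047 for deficit in cra2 roots and -0.48 between cra2 and A17 roots under deficit. Its shoot minus root response in A17 was -0.67 by RLE and DESeq2, -1.08 by totals, -0.55 without a filter and -0.54 with the compared libraries alone. miR171h for deficit in cra2 roots was 0.28 by totals, 0.035 without a filter and 0.004 with the compared libraries alone. By totals it was -0.12 for deficit in A17 shoots, 0.10 in cra2 shoots, and 0.07 and 0.21 for cra2 minus A17 response in roots and shoots, and it was -0.028 in A17 shoots with the compared libraries alone. Its shoot minus root response in A17 was 0.12 by RLE and DESeq2, 0.22 without a filter and 0.26 with the compared libraries alone.

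With 1 library left out, the log2 difference of the summed forms ranged over -0.72 to 0.073 for cra2 against A17 roots under deficit, -0.333 to 0.613 for cra2 minus A17 response in roots and 0.492 to 1.023 in shoots, -0.268 to 0.207 for deficit in cra2 shoots, 0.469 to 0.938 and -0.217 to 0.02 for cra2 against A17 shoots under deficit and satiety, 0.755 to 1.118 between organs in A17 under deficit, and -1.557 to -0.914 for shoot minus root response in A17. The opposite arm ranged over 0.388 to 0.585 for deficit in A17 roots, -0.628 to -0.406 for cra2 against A17 roots under deficit, -0.08 to 0.385 for deficit in cra2 shoots, -0.415 to 0.005 for cra2 against A17 shoots under satiety and -1.28 to -0.657 for shoot minus root response in A17. miR171h ranged over -0.11 to 0.122 for deficit in cra2 roots, -0.399 to 0.049 for cra2 minus A17 response in roots, -0.121 to 0.27 for deficit in A17 shoots, and -0.625 to 0.041 in cra2 and -0.454 to 0.211 in A17 for shoot minus root response. The log2 ratio of opposite arm to mature forms ranged over -0.015 to 0.224 for deficit in A17 roots, -0.53 to 0.115 for cra2 against A17 roots under deficit, -0.338 to 0.703 for deficit in cra2 shoots and -0.934 to 0.107 for cra2 against A17 shoots under deficit.

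Counts over all sequences moved most in shoots. For deficit in A17 shoots they were 0 by edgeR, 6 by RLE, 30 by DESeq2, 5 without a filter and 1 by library totals, and for cra2 minus A17 response in shoots 0 by edgeR, 24 by DESeq2, 13 by totals and 2 without a filter. For cra2 against A17 shoots under deficit they were 25, 53 by totals and 6 with the compared libraries alone, and under satiety 13, 28 with the compared libraries alone and 31 without the cra2 shoot deficit group. For deficit in cra2 roots they were 48 (23 higher, 25 lower) and 30 by totals (27 higher, 3 lower), and for organs in cra2 under deficit 97 and 59 with the compared libraries alone. For shoot minus root response in cra2 they were 1, 4 by DESeq2, 3 by RLE and 2 without a filter. Higher and lower calls for that response in A17 were 17 and 37, and 32 and 25 by RLE.

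The replicate block kept each of the 48 results with a fitted test on its side of the threshold, for example -0.86 for the summed forms in A17 shoots, and ended 3 calls of single members between the genotypes: form B at -0.73 in roots under deficit, form A at -1.16 in roots under satiety and form E at 1.65 in shoots under deficit. Residuals of equally numbered libraries correlated above 0.1 in every pair for deficit and satiety in A17 roots alone, and whether the numbers pair libraries is not known.

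Depth limits forms E and F in roots, at 48 and 14 counts in all, and forms C and D there, at 1 count each. With 3 libraries a group, the ratio tests cannot pass 0.05. Names rest on sequence similarity, and loci, precursors and targets were not analysed here.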
